A study of Bos taurus with 8 samples.

Results

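The solute carriers are membrane proteins whose gene symbols begin with SLC and a family number. A gene was taken as a member when its symbol in the files began this way and its level reached 1 FPKM or more in at least 2 of the 8 libraries. Of 280 such genes in the files, 171 passed and 109 did not, while 14839 of 21258 features passed in the whole series. FPKM scales the fragments of a transcript by its length and by the size of the library. Levels of different genes can thus be set roughly side by side, as unequal recovery in amplification is not corrected. The libraries were made from pools of 8 Holstein cattle embryos at the eight-cell stage. The groups were KDM4E-SCNT (2 pools), which are embryos cloned by somatic cell nuclear transfer that overexpressed the histone demethylase KDM4E, IVF (3 pools), which are embryos fertilised in vitro, and SCNT (3 pools), which are cloned embryos without KDM4E overexpression. SCNT is the control in the series design. The labels give neither the donor cell type, nor how KDM4E was delivered, nor the hour of collection, nor whether replicate pools came from separate batches, so p-values measure only a spread between samples that may be technical. No feature here carries the symbol KDM4E, and its level was not analysed here.

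Solute carriers move nutrients, ions, metals and metabolites across the plasma membrane and the membranes of organelles. Some let a substrate flow down its own gradient, as the SLC2 glucose carriers do, and others spend the sodium, proton or chloride gradient to pull a substrate in. The SLC25 family sits mainly in the inner mitochondrial membrane and exchanges nucleotides, phosphate, amino acids and organic acids between the cytosol and the matrix. A cattle embryo at this stage still holds transcripts laid down in the oocyte and is starting to transcribe its own genome, and embryos before compaction use pyruvate, lactate and amino acids more than glucose.

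By substrate, 8 of 17 sugar carriers passed, as did 22 of 39 amino acid carriers, 31 of 37 SLC25 carriers, 30 of 54 ion carriers, 20 of 24 metal carriers, 27 of 40 carriers of nucleosides, nucleotide sugars and vitamins, and 30 of 65 carriers of other substrates. Another 3 of 4 genes are named after a carrier without being one. Of the 109 that did not pass, 95 stayed under 1 FPKM in every library and 14 reached it in 1 library. Just inside the limit were SLC18B1, with a second-highest value of 1.08 FPKM, and SLC9A2 and SLC50A1, each at 1.12 FPKM. Just outside were SLC25A21 at 0.95, SLC6A15 at 0.94 and SLC23A1 at 0.92 FPKM. Between 148 and 154 members reached 1 FPKM in KDM4E-SCNT pools, 139 to 145 in IVF pools and 114 to 129 in SCNT pools. The members together held 0.299 to 0.335% of all FPKM in KDM4E-SCNT pools, 0.338 to 0.367% in IVF pools and 0.269 to 0.307% in SCNT pools. In pooled embryos, fewer cells of a type and less RNA per cell cannot be told apart.

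Total FPKM per library was 753246 to 804189 in KDM4E-SCNT, 702294 to 742949 in IVF and 812693 to 844175 in SCNT, and read depth is unknown, since no counts were used here. All 12 oocyte and early embryo markers were above 1 FPKM in every library, with a summed level of 5968 to 8923 FPKM in KDM4E-SCNT pools, 10070 to 11030 FPKM in IVF pools and 1729 to 2333 FPKM in SCNT pools. Of these 12 markers, 10 were called higher and 1 lower for KDM4E-SCNT against SCNT, and 11 higher and 1 lower for IVF against SCNT. The 12 fibroblast markers summed to 85.3 to 347 FPKM in KDM4E-SCNT, 24.0 to 48.0 FPKM in IVF and 100.3 to 170.1 FPKM in SCNT pools. The 10 cumulus and granulosa markers summed to 46.1 to 99.9 FPKM in KDM4E-SCNT, 102 to 164 FPKM in IVF and 16.9 to 25.6 FPKM in SCNT pools. Of these, FSHR and CYP19A1 lay under 1 FPKM in every library. HAS2 had 27.5 and 47.4 FPKM in KDM4E-SCNT, 70.3, 55.7 and 41.8 FPKM in IVF, and 4.87, 9.56 and 6.01 FPKM in SCNT pools. STAR had 15.6 and 41.5, 86.6, 41.2 and 49.8, and 5.08, 11.1 and 6.15 FPKM in the same order. Of 4 tested, 2 were called higher and 0 lower for KDM4E-SCNT against SCNT, and 3 higher and 1 lower for IVF against SCNT. The 7 blood markers summed to 29.6 to 44.3 FPKM in KDM4E-SCNT, 12.8 to 19.2 FPKM in IVF and 37.2 to 76.7 FPKM in SCNT pools. Of the globins, HBB lay under 1 FPKM in every library. HBA had 24.4 and 38.1 FPKM in KDM4E-SCNT, 5.58, 4.85 and 7.64 FPKM in IVF, and 68.9, 50.4 and 35.7 FPKM in SCNT pools. Of 6 blood markers tested, 0 were called for KDM4E-SCNT against SCNT. For IVF against SCNT 3 were called higher and 1, HBA, lower. The part of these markers in the results below was not tested.

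KDM4E-SCNT embryos had 51 of 171 members higher and 18 lower than SCNT embryos at an adjusted p under 0.05, which is 29.8% and 10.5% of the members against 21.6% and 11.0% of all 14839 features. IVF embryos had 77 higher and 31 lower than SCNT embryos, which is 45.0% and 18.1% of the members against 34.9% and 23.6% of all features. KDM4E-SCNT embryos had 9 members higher than IVF embryos and 0 lower, against 5.9% and 0.62% of all features. At an unadjusted p under 0.05 in limma, the only tool run, 21 members were higher and 8 lower in that last comparison. The first 2 comparisons share the SCNT pools, and all 3 share pools with another, so their counts are not independent.

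The median member differed by 0.46 on the log2(FPKM + 1) scale between KDM4E-SCNT and SCNT, by 0.77 between IVF and SCNT and by -0.21 between KDM4E-SCNT and IVF, against 0.33, 0.40 and -0.03 for the median of all features. Relative to the median of all features, the median member thus differed by 0.14, 0.37 and -0.19 in these comparisons. With libraries rescaled by median ratios, the medians of all features were 0.02, 0.10 and -0.04 instead. Under that scaling the members split 31 higher and 30 lower for KDM4E-SCNT against SCNT, where all features split 2099 higher and 2763 lower in place of 3208 and 1636. For IVF against SCNT the members then split 66 higher and 41 lower, where all features split 4142 and 4337 in place of 5182 and 3498. The split for KDM4E-SCNT against SCNT thus moved with the scaling. Leaving out KDM4E-SCNT replicate 2 left 1 pool in that group, and the median member then differed by 0.37 in that comparison. The median of all features was 0.19 in that fit, where fewer members and fewer of all features were called. Leaving out SCNT replicate 3 left 31 members higher, where all features had 2224 higher in place of 3208.

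**Figure D1:**
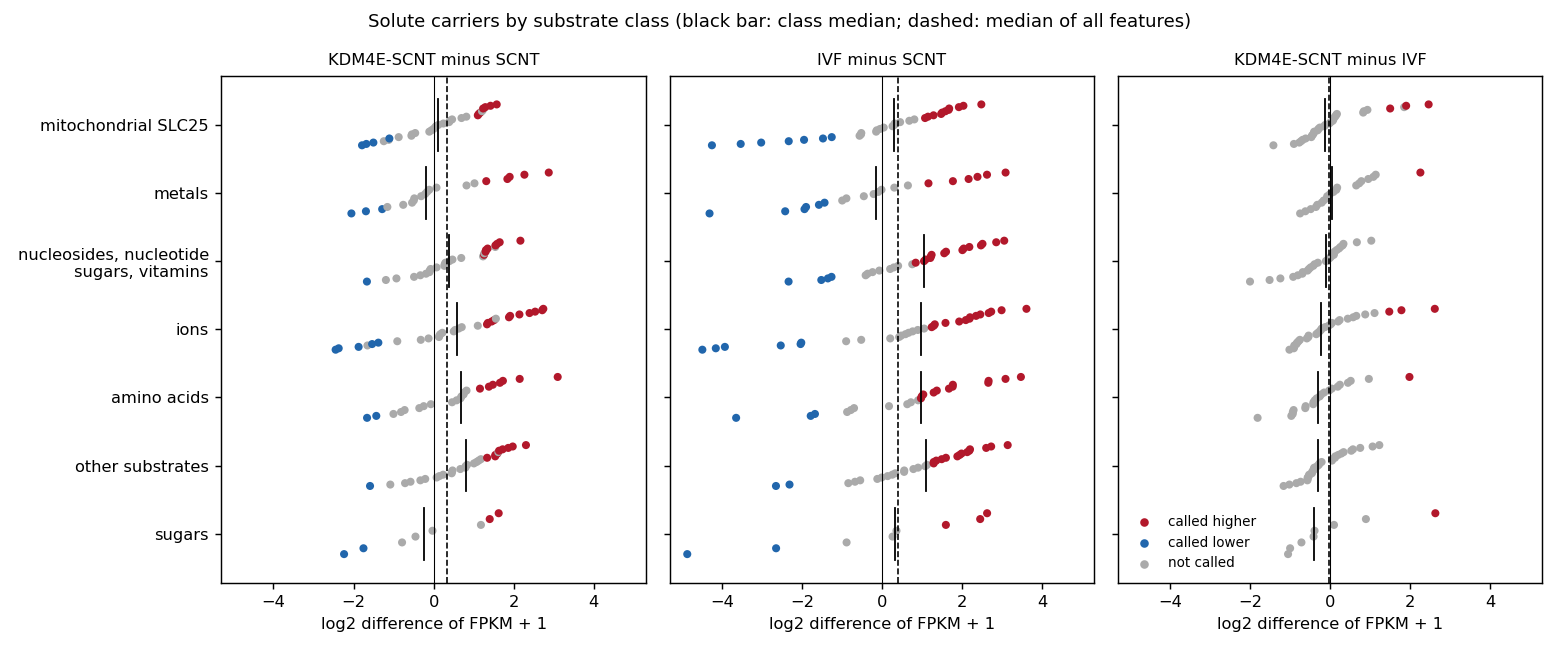
Log2 difference of FPKM + 1 (x axis) of each solute carrier, by substrate class (y axis), in 3 comparisons; red points were called higher, blue points called lower and grey points not called, black bars are class medians and dashed lines the median of all features. Called members stand on both sides in every class shown of the first 2 panels, and the third panel holds 9 higher calls and 0 lower.

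Summed over its members, the sugar class took 66.2 to 92.0 FPKM in KDM4E-SCNT pools, 49.4 to 96.3 FPKM in IVF pools and 184 to 272 FPKM in SCNT pools. Amino acid carriers summed to 201 to 317 FPKM in KDM4E-SCNT, 245 to 318 FPKM in IVF and 121 to 167 FPKM in SCNT. Carriers of nucleosides, nucleotide sugars and vitamins summed to 243 to 342 FPKM in KDM4E-SCNT, 360 to 413 FPKM in IVF and 152 to 191 FPKM in SCNT. Carriers of other substrates summed to 143 to 187 FPKM in KDM4E-SCNT, 190.0 to 210.0 FPKM in IVF and 124 to 136 FPKM in SCNT. For these 4 classes the SCNT pools did not overlap with either other group, but 2 of the 4 rested in part on their highest member, as sums without it, chosen after the values were seen, showed. Without SLC7A3, the amino acid sums were 114.2 and 157.8 FPKM in KDM4E-SCNT pools, 224.6, 169.7 and 175.2 FPKM in IVF pools and 153.5, 130.7 and 101.9 FPKM in SCNT pools, so KDM4E-SCNT then overlapped with SCNT. Without SLC2A3, the sugar sums were 24.2 and 27.3 FPKM in KDM4E-SCNT pools, 56.3, 33.4 and 35.8 FPKM in IVF pools and 47.2, 34.4 and 44.4 FPKM in SCNT pools, so IVF then overlapped with SCNT. The other two classes did not overlap with SCNT without their highest members, SLC35E3 and SLC16A1. The sums of the SLC25, ion and metal classes overlapped between groups. Without SLC31A1, the metal sums were 301.2 and 291.5 FPKM in KDM4E-SCNT pools and 268.2, 215.2 and 255.6 FPKM in SCNT pools, which then did not overlap. The IVF metal sums still overlapped with SCNT, as did the SLC25 and ion sums of both groups without SLC25A17 and SLC20A1. No test was made of the sums.

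**Figure D2:**
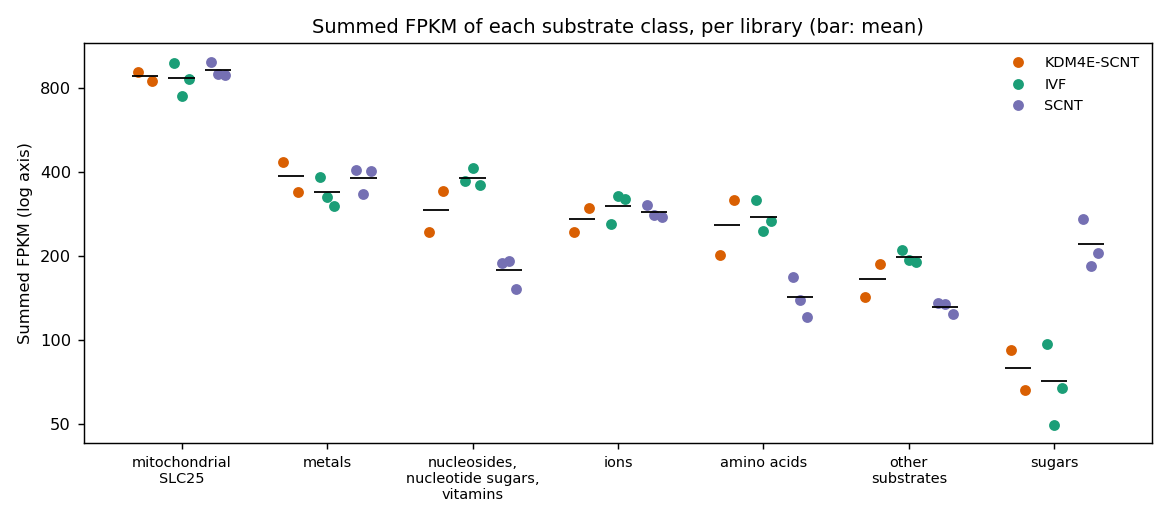
Summed FPKM of each substrate class (y axis, log scale) in each library, with classes on the x axis, 1 point per library and a bar at the group mean. SCNT pools lie above both other groups for sugars and below them for amino acids and for nucleosides, nucleotide sugars and vitamins; SLC2A3 and SLC7A3 hold a large share of the sugar and amino acid sums.

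Among sugar carriers, the glucose carrier SLC2A3 and the fructose carrier SLC2A5 were lower in KDM4E-SCNT and IVF embryos than in SCNT embryos, and the sodium-driven carriers SLC5A1 and SLC5A9 were higher. Of the 8 sugar members, 2 were higher and 2 lower for KDM4E-SCNT against SCNT, and 3 were higher and 2 lower for IVF against SCNT. That is 25% higher and 25% lower for KDM4E-SCNT against SCNT and 37.5% and 25% for IVF against SCNT, beside 21.6% and 11.0%, and 34.9% and 23.6%, of all features. SLC2A3 (ENSBTAG00000004556.4, chromosome 5, 101896622 to 101909500 of the UMD3.1 build), the high-affinity glucose carrier GLUT3, had 67.8 and 38.9 FPKM in KDM4E-SCNT pools, 40.0, 16.0 and 31.4 FPKM in IVF pools, and 225, 149 and 161 FPKM in SCNT pools. All SCNT pools lay above all pools of both other groups, whose own ranges overlapped. Its difference was -1.75 ± 0.41, adjusted p = 0.00701 for KDM4E-SCNT against SCNT and -2.64 ± 0.36, adjusted p = 6.45e-05 for IVF against SCNT (limma log2 difference of FPKM + 1 with its standard error, Benjamini-Hochberg adjusted over all features, as in every value of this form), while the KDM4E-SCNT against IVF difference of 0.89 ± 0.41, adjusted p = 0.247 did not pass. SLC2A3 made up 82.4 to 84.3% of the summed SLC2 level in KDM4E-SCNT pools, 73.3 to 84.3% in IVF pools and 80.1 to 83.6% in SCNT pools.

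SLC2A5 (ENSBTAG00000034323.3, chromosome 16, 45252621 to 45255676), the fructose carrier GLUT5, had 6.77 and 4.22 FPKM in KDM4E-SCNT pools, 0, 0 and 0.10 FPKM in IVF pools, and 33.0, 23.5 and 31.4 FPKM in SCNT pools. The 3 groups did not overlap, and 2 IVF pools were listed at 0. The differences were -2.24 ± 0.37, adjusted p = 0.00147 for KDM4E-SCNT against SCNT, -4.86 ± 0.33, adjusted p = 5.63e-07 for IVF against SCNT and 2.63 ± 0.37, adjusted p = 0.00114 for KDM4E-SCNT against IVF. SLC5A1 (ENSBTAG00000012851.2, chromosome 17, 72690558 to 72740066), the sodium-glucose cotransporter SGLT1, had 6.42 and 11.9 FPKM in KDM4E-SCNT pools, 22.1, 21.1 and 15.4 FPKM in IVF pools, and 1.37, 3.65 and 3.60 FPKM in SCNT pools. Its 3 groups did not overlap either, in the opposite order. The differences were 1.40 ± 0.42, adjusted p = 0.0232 for KDM4E-SCNT against SCNT and 2.45 ± 0.38, adjusted p = 1.42e-04 for IVF against SCNT, and -1.05 ± 0.42, adjusted p = 0.181 for KDM4E-SCNT against IVF, which did not pass. FPKM is scaled by length but not for unequal recovery of genes in the PCR amplification, so a ratio of 2 genes is a rough guide. By FPKM, SLC2A3 stood at 10.6 and 3.28 times the SLC5A1 level in KDM4E-SCNT pools. The ratio was 1.81, 0.76 and 2.04 in IVF pools, and 164, 40.9 and 44.8 in SCNT pools.

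SLC5A9, a sodium-driven carrier of mannose and related sugars, was also higher in KDM4E-SCNT (1.62 ± 0.48, adjusted p = 0.0216) and in IVF (2.63 ± 0.43, adjusted p = 2.27e-04) than in SCNT. SLC45A4 was called for IVF against SCNT (1.60 ± 0.43, adjusted p = 0.00666) and not for KDM4E-SCNT against SCNT (1.18 ± 0.48, adjusted p = 0.0754). SLC2A1, the GLUT1 carrier of basal glucose uptake, had 4.00 and 3.24 FPKM in KDM4E-SCNT pools, 12.1, 2.05 and 9.93 FPKM in IVF pools, and 7.24, 3.80 and 5.34 FPKM in SCNT pools. The IVF pools alone spanned the whole range of the other groups, and no comparison passed (adjusted p of 0.515 to 0.657). SLC2A2, the low-affinity GLUT2, did not pass the limit on low values. Without KDM4E-SCNT replicate 2, which left 1 pool in that group, the KDM4E-SCNT against SCNT calls of SLC2A3, SLC5A1 and SLC5A9 were lost. Their differences were then -1.36, 1.00 and 1.68. The SLC5A1 call was also lost with median-ratio scaling (adjusted p = 0.0784) and without SCNT replicate 1 (adjusted p = 0.0866), and that of SLC5A9 in the fit leaving out KDM4E-SCNT replicate 1 (adjusted p = 0.0763) and SCNT replicate 3 (adjusted p = 0.0687).

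**Figure D3:**
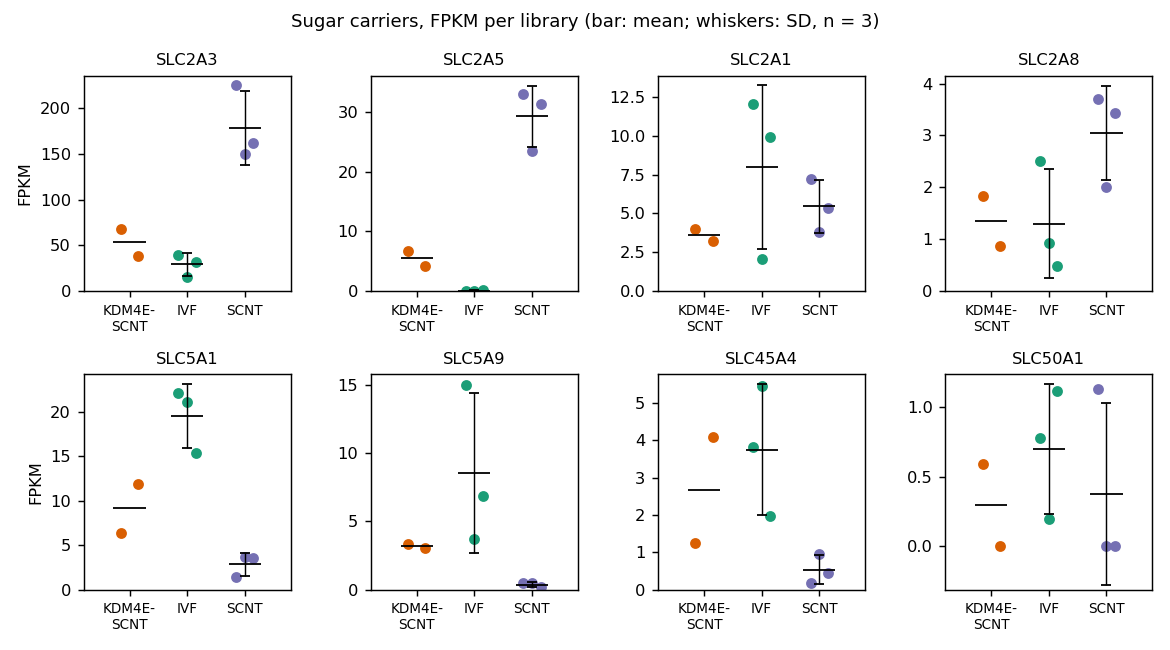
FPKM (y axis, linear) of the 8 sugar carriers in each library of the 3 groups (x axis), with a bar at the mean and whiskers of 1 SD where n = 3; points are pools. SLC2A3 and SLC2A5 are highest in SCNT pools, SLC5A1 and SLC5A9 are lowest there, and SLC2A1 overlaps between groups.

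Amino acid carriers held 7 higher and 2 lower calls of 22 for KDM4E-SCNT against SCNT, and 12 higher and 3 lower for IVF against SCNT. These are 31.8% higher and 9.1% lower for KDM4E-SCNT against SCNT and 54.5% and 13.6% for IVF against SCNT, beside 21.6% and 11.0%, and 34.9% and 23.6%, of all features, which lean the same way. The cationic amino acid carrier SLC7A3 (ENSBTAG00000007403.3, chromosome X, 85010185 to 85015644), which takes up arginine and lysine, had 86.7 and 159.5 FPKM in KDM4E-SCNT pools, 93.5, 75.3 and 91.3 FPKM in IVF pools, and 13.8, 8.12 and 18.7 FPKM in SCNT pools. Every KDM4E-SCNT and IVF pool lay above every SCNT pool. The difference was 3.10 ± 0.39, adjusted p = 6.01e-04 for KDM4E-SCNT against SCNT and 2.66 ± 0.34, adjusted p = 4.31e-05 for IVF against SCNT, and both calls were kept under every alternative run. The difference between KDM4E-SCNT and IVF did not pass (0.44 ± 0.39, adjusted p = 0.572). SLC7A3 held the highest mean of the class, at 68.4 FPKM over the 8 libraries.

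The other higher calls included SLC6A20, a sodium-driven proline carrier, at 6.26 and 5.84 FPKM in KDM4E-SCNT pools, 25.4, 8.01 and 9.34 FPKM in IVF pools, and 0.87, 0.73 and 0.24 FPKM in SCNT pools. No KDM4E-SCNT or IVF pool overlapped with the SCNT pools, and the differences were 2.15 ± 0.47, adjusted p = 0.00543 for KDM4E-SCNT against SCNT and 3.09 ± 0.42, adjusted p = 6.10e-05 for IVF against SCNT. SLC38A8, a glutamine carrier of the SLC38 family, differed by 1.66 ± 0.52, adjusted p = 0.0287 for KDM4E-SCNT against SCNT and by 3.47 ± 0.47, adjusted p = 5.50e-05 for IVF against SCNT. SLC7A7, a light subunit that exchanges cationic for neutral amino acids, differed by 1.73 ± 0.48, adjusted p = 0.0159 and 2.66 ± 0.43, adjusted p = 2.00e-04 in the same 2 comparisons. The heavy subunit that such exchangers pair with, SLC3A2, did not pass in any comparison and had 6.32 and 6.85 FPKM in KDM4E-SCNT pools, 8.22, 6.86 and 13.5 FPKM in IVF pools, and 10.1, 7.57 and 6.65 FPKM in SCNT pools. SLC7A5 and SLC7A11, light subunits that carry large neutral amino acids and cystine, and both features of the glycine carrier SLC6A9 did not pass the limit on low values.

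Glutamine and glutamate carriers made up the lower calls. SLC38A1 (ENSBTAG00000000859.5, chromosome 5, 34145240 to 34198996), a sodium-driven glutamine carrier, had 4.56 and 2.70 FPKM in KDM4E-SCNT pools, 0.23, 0.05 and 0.18 FPKM in IVF pools, and 13.7, 13.6 and 12.8 FPKM in SCNT pools. The 3 groups stood apart, with IVF lowest and SCNT highest. The differences were -1.66 ± 0.36, adjusted p = 0.00544 for KDM4E-SCNT against SCNT, -3.64 ± 0.33, adjusted p = 3.17e-06 for IVF against SCNT and 1.98 ± 0.36, adjusted p = 0.00523 for KDM4E-SCNT against IVF. SLC1A1, a glutamate carrier, was lower in KDM4E-SCNT (-1.43 ± 0.37, adjusted p = 0.0114) and in IVF (-1.67 ± 0.33, adjusted p = 8.74e-04) than in SCNT. SLC38A2, the close relative of SLC38A1, was lower in IVF than in SCNT (-1.78 ± 0.38, adjusted p = 0.00155), with 0.83 and 1.78 FPKM in KDM4E-SCNT pools, 0, 0.50 and 0.03 FPKM in IVF pools, and 3.07, 4.29 and 1.90 FPKM in SCNT pools. SLC1A5, the neutral amino acid exchanger ASCT2, had 27.4 and 27.3 FPKM in KDM4E-SCNT pools, 30.6, 25.0 and 28.3 FPKM in IVF pools, and 69.1, 51.6 and 26.9 FPKM in SCNT pools; the highest values were 2 SCNT pools and the third SCNT pool lay among the others, and no comparison passed.

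Leaving out KDM4E-SCNT replicate 2 left 1 pool in that group, with an amino acid class median of 0.29 against SCNT in place of 0.68. The median of all features was then 0.19 in place of 0.33. The calls of SLC38A1, SLC1A1, SLC7A7 and SLC38A8 were lost, with differences of -1.37, -1.35, 0.90 and 0.995, and fewer of all features were called too. The SLC38A8 call was also lost without any 1 of the 3 SCNT pools (adjusted p of 0.0556, 0.0668 and 0.0687) and with no filter on low values (adjusted p = 0.0634), and the SLC1A1 call without SCNT replicate 1 (adjusted p = 0.051). Under median-ratio scaling the class counts were 5 higher and 3 lower for KDM4E-SCNT against SCNT, and 9 higher and 6 lower for IVF against SCNT. All features then split 2099 higher and 2763 lower, and 4142 and 4337.

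**Figure D4:**
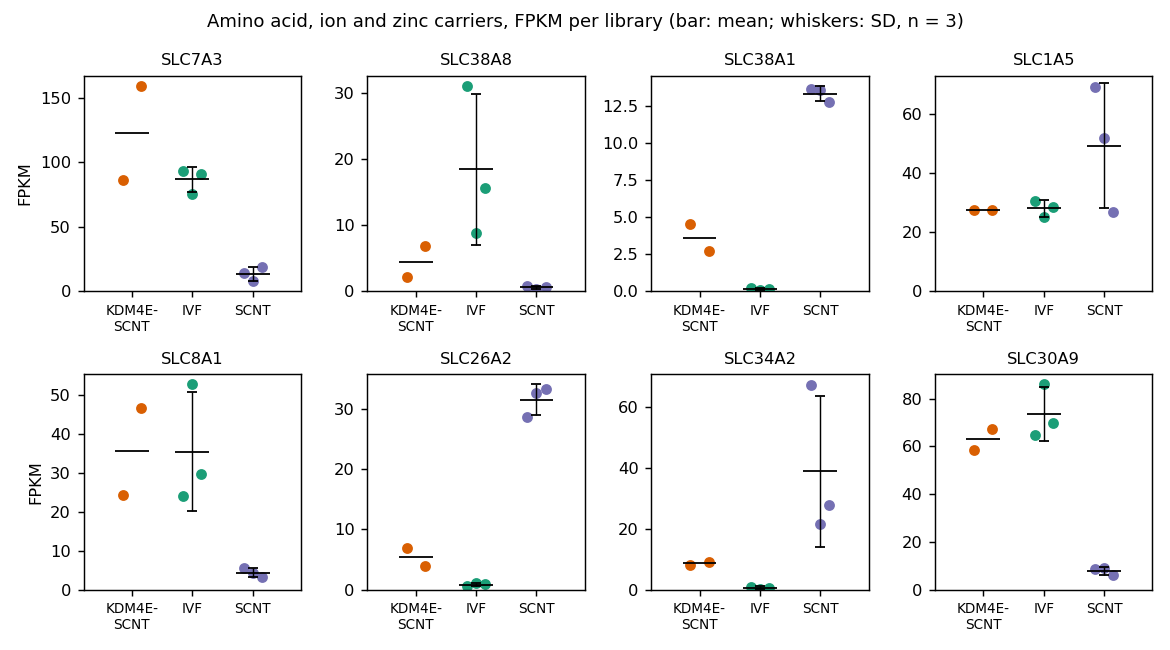
FPKM (y axis, linear) of 4 amino acid carriers, 3 ion carriers and 1 zinc carrier in each library of the 3 groups (x axis), with a bar at the mean and whiskers of 1 SD where n = 3; points are pools. SLC7A3, SLC8A1 and SLC30A9 are lowest in SCNT pools, while SLC38A1, SLC26A2 and SLC34A2 are highest there, lowest in IVF pools and between them in KDM4E-SCNT pools.

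The mitochondrial SLC25 class was called in both directions: 7 higher and 4 lower of 31 for KDM4E-SCNT against SCNT, and 11 higher and 7 lower for IVF against SCNT. The shares were 22.6% higher and 12.9% lower for KDM4E-SCNT against SCNT and 35.5% and 22.6% for IVF against SCNT, near the 21.6% and 11.0%, and 34.9% and 23.6%, of all features. With median-ratio scaling the counts became 1 higher and 8 lower for KDM4E-SCNT against SCNT and 9 higher and 7 lower for IVF against SCNT, and the class median was then negative in both (-0.30 in place of 0.12, and -0.11 in place of 0.31). All features then split 2099 higher and 2763 lower in the first comparison, and 4142 and 4337 in the second. Without KDM4E-SCNT replicate 2, which left 1 pool in that group, the class median against SCNT was 0.29, with 0.19 for all features. The KDM4E-SCNT against SCNT calls of the class were lost in that fit, where fewer of all features were called in that comparison too. Since the sign of the class median moved with the scaling, no direction is given for the family. Its summed level, 844 to 916 FPKM in KDM4E-SCNT, 750 to 987 FPKM in IVF and 892 to 995 FPKM in SCNT, overlapped between groups.

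The SLC25 feature with the highest level, SLC25A17 (ENSBTAG00000006200.5, chromosome 5, 112564970 to 112607538), carries a name that belongs to a peroxisomal carrier of cofactors. It had 398 and 345 FPKM in KDM4E-SCNT pools, 334, 317 and 338 FPKM in IVF pools, and 357, 382 and 290.4 FPKM in SCNT pools, the only member with a mean above 100 FPKM, with no call in any comparison and the SCNT pools spanning the range of the IVF pools. Its deposited description also names a ribosomal protein S27-like product beside the carrier. In the RefSeq gene table of another assembly, the spans of a protein-coding gene and a pseudogene overlap that of SLC25A17. How much of this level belongs to the carrier cannot be told from the files. Likewise the feature named SLC25A10, the dicarboxylate carrier, also describes MRPL12, a mitochondrial ribosomal protein whose gene lies next to it. Without these 2 features the SLC25 sum was 507 and 494 FPKM in KDM4E-SCNT pools, 653, 432 and 524 FPKM in IVF pools, and 586, 496 and 564 FPKM in SCNT pools, and the calls were 7 higher and 3 lower of 29 for KDM4E-SCNT against SCNT and 11 higher and 6 lower for IVF against SCNT.

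Lower calls within the family included carriers of phosphate, pyrimidine nucleotides and aspartate. The phosphate carrier SLC25A3 (ENSBTAG00000012890.5, chromosome 5, 63086353 to 63092547), which supplies phosphate for ATP synthesis, had 29.1 and 17.5 FPKM in KDM4E-SCNT pools, 7.92, 2.62 and 6.88 FPKM in IVF pools, and 70.5, 41.9 and 42.9 FPKM in SCNT pools. IVF pools lay below, and SCNT pools above, all KDM4E-SCNT pools. It was lower in IVF than in SCNT (-3.02 ± 0.39, adjusted p = 4.50e-05) and higher in KDM4E-SCNT than in IVF (1.90 ± 0.44, adjusted p = 0.0205), while KDM4E-SCNT against SCNT did not pass (-1.12 ± 0.44, adjusted p = 0.0669). SLC25A33, a pyrimidine nucleotide carrier, had 49.6 and 24.8 FPKM in KDM4E-SCNT pools, 14.4, 2.60 and 17.2 FPKM in IVF pools, and 146, 101 and 103 FPKM in SCNT pools. The same order held, and the differences were -1.68 ± 0.58, adjusted p = 0.0422 for KDM4E-SCNT against SCNT, -3.53 ± 0.52, adjusted p = 1.11e-04 for IVF against SCNT and 1.85 ± 0.58, adjusted p = 0.086 for KDM4E-SCNT against IVF.

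SLC25A12, an aspartate-glutamate carrier of the malate-aspartate shuttle, was lower in KDM4E-SCNT (-1.11 ± 0.34, adjusted p = 0.0249) and in IVF (-1.95 ± 0.30, adjusted p = 1.55e-04) than in SCNT. Its partner isoform SLC25A13, chosen after its values were seen, had 30.9 and 29.6 FPKM in KDM4E-SCNT pools, 23.4, 31.8 and 28.7 FPKM in IVF pools, and 22.1, 22.2 and 24.6 FPKM in SCNT pools and was not called. SLC25A46, an outer membrane protein of mitochondrial shape, was lower in KDM4E-SCNT (-1.51 ± 0.37, adjusted p = 0.0089) and in IVF (-2.33 ± 0.33, adjusted p = 7.71e-05). SLC25A10 was lower in both as well (-1.79 ± 0.53, adjusted p = 0.0219 and -4.25 ± 0.47, adjusted p = 1.44e-05), with the mixed description given above. The SLC25A10 call for KDM4E-SCNT against SCNT was lost with pseudocount 0.1 (adjusted p = 0.17), with no filter on low values (adjusted p = 0.0538) and without SCNT replicate 1 or 3 (adjusted p = 0.0861 and 0.0692). The SLC25A12 call was lost without the same SCNT pools (adjusted p = 0.0575 and 0.0772).

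The ADP/ATP carriers, which exchange matrix ATP for cytosolic ADP, did not move together. They are near copies of each other, so their reads may be split between them, and the feature SLC25A4 is described as both translocase 1 and translocase 2. SLC25A31, the isoform known mainly from germ cells and chosen here after its values were seen, had 24.1 and 41.0 FPKM in KDM4E-SCNT pools, 42.3, 44.0 and 42.0 FPKM in IVF pools, and 18.2, 11.7 and 9.74 FPKM in SCNT pools. Every KDM4E-SCNT and IVF pool lay above every SCNT pool, and the differences were 1.24 ± 0.36, adjusted p = 0.0199 for KDM4E-SCNT against SCNT and 1.67 ± 0.32, adjusted p = 7.49e-04 for IVF against SCNT. SLC25A5, the isoform of dividing cells, had 16.6 and 31.4 FPKM in KDM4E-SCNT pools, 70.0, 18.3 and 44.5 FPKM in IVF pools, and 57.9, 41.7 and 71.5 FPKM in SCNT pools. The KDM4E-SCNT pools lay below all SCNT pools, IVF pools overlapped with both, and no comparison passed (-1.24 ± 0.49, adjusted p = 0.0686 for KDM4E-SCNT against SCNT). SLC25A4 and SLC25A6 were not called in any comparison, with means of 20.4 and 15.9 FPKM over the 8 libraries. The summed level of the 4 was 79.1 to 111 FPKM in KDM4E-SCNT, 81.2 to 169 FPKM in IVF and 78.9 to 119 FPKM in SCNT.

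Higher calls within the family were led by SLC25A15, the ornithine carrier of the urea cycle, which had 6.59 and 11.5 FPKM in KDM4E-SCNT pools, 22.1, 14.9 and 15.5 FPKM in IVF pools, and 2.52, 3.00 and 1.48 FPKM in SCNT pools. The groups did not overlap, and the differences were 1.57 ± 0.39, adjusted p = 0.00966 for KDM4E-SCNT against SCNT and 2.48 ± 0.35, adjusted p = 7.74e-05 for IVF against SCNT. SLC25A26, the S-adenosylmethionine carrier, differed by 1.29 ± 0.31, adjusted p = 0.00885 and 1.59 ± 0.28, adjusted p = 4.07e-04 in the same comparisons, though its description also names SETMAR. SLC25A16 differed by 1.10 ± 0.31, adjusted p = 0.0184 and 1.50 ± 0.28, adjusted p = 6.10e-04. The SLC25A26 and SLC25A16 calls against SCNT were lost for KDM4E-SCNT under median-ratio scaling (adjusted p = 0.0572 and 0.129). Without SCNT replicate 1 the SLC25A16 call for KDM4E-SCNT was lost too (adjusted p = 0.0666). The SLC25A33 call for KDM4E-SCNT against SCNT was lost without any 1 SCNT pool (adjusted p of 0.118, 0.0675 and 0.0831), with pseudocount 0.1 (adjusted p = 0.0736) and with no filter on low values (adjusted p = 0.0995).

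**Figure D5:**
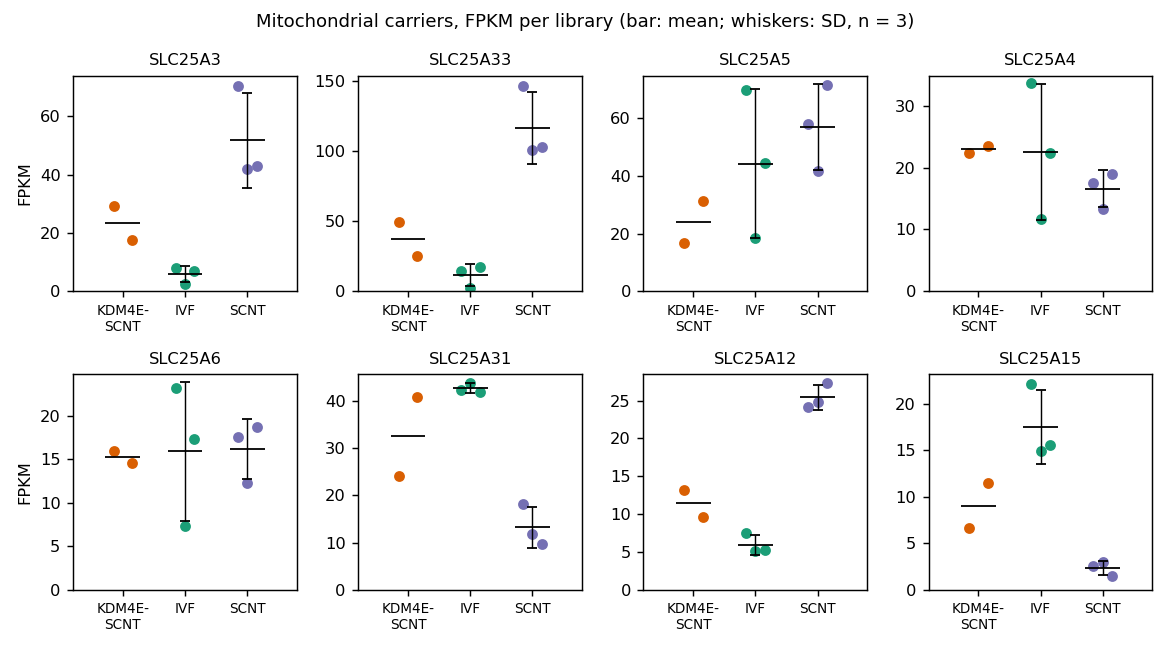
FPKM (y axis, linear) of 8 mitochondrial carriers in each library of the 3 groups (x axis), with a bar at the mean and whiskers of 1 SD where n = 3; points are pools. SLC25A3, SLC25A33 and SLC25A12 are highest in SCNT pools, SLC25A31 and SLC25A15 are lowest there, and the IVF pools of SLC25A4 and SLC25A6 span the values of both other groups.

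Ion carriers held 11 higher and 5 lower calls of 30 for KDM4E-SCNT against SCNT and 14 higher and 6 lower for IVF against SCNT. In shares this was 36.7% higher and 16.7% lower for KDM4E-SCNT against SCNT and 46.7% and 20% for IVF against SCNT, beside 21.6% and 11.0%, and 34.9% and 23.6%, of all features. Median-ratio scaling gave 9 higher and 7 lower for KDM4E-SCNT against SCNT, and 13 higher and 7 lower for IVF against SCNT. All features then split 2099 higher and 2763 lower, and 4142 and 4337. SLC8A1 (ENSBTAG00000013861.5, chromosome 11, 22443220 to 22797877), the sodium-calcium exchanger NCX1, had 24.4 and 46.7 FPKM in KDM4E-SCNT pools, 24.0, 52.8 and 29.6 FPKM in IVF pools, and 5.48, 4.19 and 3.20 FPKM in SCNT pools. No SCNT pool reached the lowest pool of either other group. The differences were 2.74 ± 0.42, adjusted p = 0.00117 for KDM4E-SCNT against SCNT and 2.73 ± 0.37, adjusted p = 6.48e-05 for IVF against SCNT, both kept under every alternative run, and 0.01 ± 0.42, adjusted p = 0.995 for KDM4E-SCNT against IVF. The sodium bicarbonate cotransporter SLC4A4 differed by 2.14 ± 0.40, adjusted p = 0.00253 for KDM4E-SCNT against SCNT and 2.99 ± 0.36, adjusted p = 2.43e-05 for IVF against SCNT.

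SLC17A3, an organic anion and phosphate carrier, had 7.01 and 6.92 FPKM in KDM4E-SCNT pools, 12.2, 9.52 and 22.6 FPKM in IVF pools, and 0, 0.07 and 0.68 FPKM in SCNT pools, one SCNT pool being listed at 0. Its differences were 2.71 ± 0.43, adjusted p = 0.00129 for KDM4E-SCNT against SCNT and 3.61 ± 0.38, adjusted p = 1.05e-05 for IVF against SCNT. SLC9A9, an endosomal sodium-proton exchanger, differed by 2.53 ± 0.46, adjusted p = 0.00225 and 2.67 ± 0.41, adjusted p = 1.55e-04 in these comparisons.

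Among the lower ion carriers, SLC26A2 (ENSBTAG00000014615.2, chromosome 7, 63294621 to 63298306), which takes up sulfate, had 6.85 and 3.99 FPKM in KDM4E-SCNT pools, 0.56, 1.04 and 0.91 FPKM in IVF pools, and 28.5, 32.6 and 33.2 FPKM in SCNT pools. The groups stood apart in every pool, with the KDM4E-SCNT pools between the others. The differences were -2.37 ± 0.36, adjusted p = 0.00117 for KDM4E-SCNT against SCNT, -4.15 ± 0.32, adjusted p = 1.33e-06 for IVF against SCNT and 1.78 ± 0.36, adjusted p = 0.00945 for KDM4E-SCNT against IVF. SLC26A4, the anion exchanger pendrin, had 6.86 and 3.91 FPKM in KDM4E-SCNT pools, 0.75, 1.80 and 1.28 FPKM in IVF pools, and 36.1, 23.5 and 41.9 FPKM in SCNT pools. Its order was the same, with differences of -2.45 ± 0.40, adjusted p = 0.00149, -3.92 ± 0.36, adjusted p = 3.73e-06 and 1.47 ± 0.40, adjusted p = 0.0458 in these 3 comparisons.

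SLC34A2, a sodium-phosphate cotransporter, had 8.15 and 9.23 FPKM in KDM4E-SCNT pools, 0.99, 0.18 and 0.69 FPKM in IVF pools, and 67.4, 21.7 and 27.8 FPKM in SCNT pools. SCNT replicate 1 stood well above the other SCNT pools, and the 3 groups did not overlap. The differences were -1.87 ± 0.47, adjusted p = 0.01 for KDM4E-SCNT against SCNT, -4.49 ± 0.42, adjusted p = 4.23e-06 for IVF against SCNT and 2.61 ± 0.47, adjusted p = 0.00453 for KDM4E-SCNT against IVF. SLC20A1, a phosphate carrier of another family, had 55.5 and 59.3 FPKM in KDM4E-SCNT pools, 56.7, 76.5 and 90.8 FPKM in IVF pools, and 45.0, 81.4 and 38.8 FPKM in SCNT pools. It held the highest mean of the ion class, its groups overlapped, and no comparison passed.

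Chloride cotransporters, which set cell volume, were called in both directions. SLC12A2, the sodium-potassium-chloride importer NKCC1, had 28.3 and 13.4 FPKM in KDM4E-SCNT pools, 5.16, 11.3 and 10.5 FPKM in IVF pools, and 37.5, 40.8 and 34.8 FPKM in SCNT pools. It was lower in IVF than in SCNT (-2.01 ± 0.36, adjusted p = 4.77e-04), and KDM4E-SCNT against SCNT did not pass (-0.91 ± 0.41, adjusted p = 0.102). SLC12A5, the exporter KCC2, known from neurons and named after its values were seen, went the other way, with 1.88 ± 0.41, adjusted p = 0.00567 for KDM4E-SCNT against SCNT and 2.19 ± 0.37, adjusted p = 3.01e-04 for IVF against SCNT.

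Without KDM4E-SCNT replicate 2, which left 1 pool in that group, the ion class median against SCNT was 0.68 in place of 0.58. The median of all features was then 0.19 in place of 0.33. Fewer ion carriers and fewer of all features were called in that fit, and the call of SLC34A2 was lost.

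Metal carriers were called in both directions, with 5 higher and 3 lower of 20 for KDM4E-SCNT against SCNT and 6 higher and 6 lower for IVF against SCNT. As shares of the class these were 25% higher and 15% lower for KDM4E-SCNT against SCNT and 30% and 30% for IVF against SCNT, beside 21.6% and 11.0%, and 34.9% and 23.6%, of all features. The zinc carrier SLC30A9 (ENSBTAG00000020367.6, chromosome 6, 62509248 to 62594616), which is linked to zinc export from mitochondria, had 58.6 and 67.5 FPKM in KDM4E-SCNT pools, 64.6, 86.2 and 70.0 FPKM in IVF pools, and 8.56, 8.90 and 5.98 FPKM in SCNT pools. The lowest pool of KDM4E-SCNT and IVF lay far above the highest SCNT pool. The differences were 2.87 ± 0.32, adjusted p = 4.53e-04 for KDM4E-SCNT against SCNT and 3.09 ± 0.28, adjusted p = 3.82e-06 for IVF against SCNT, with -0.21 ± 0.32, adjusted p = 0.766 for KDM4E-SCNT against IVF. SLC39A12, a zinc importer, had 56.7 and 55.9 FPKM in KDM4E-SCNT pools, 99.3, 55.5 and 68.7 FPKM in IVF pools, and 12.7, 13.0 and 7.80 FPKM in SCNT pools. Again no SCNT pool overlapped with another group, and the differences were 2.27 ± 0.35, adjusted p = 0.00123 for KDM4E-SCNT against SCNT and 2.62 ± 0.31, adjusted p = 2.44e-05 for IVF against SCNT. All 4 of these calls against SCNT were kept under every alternative run.

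Some zinc carriers were called lower. SLC30A6, which loads zinc into the secretory pathway as a partner of SLC30A5, had 6.03 and 4.97 FPKM in KDM4E-SCNT pools, 0.09, 0.55 and 0.49 FPKM in IVF pools, and 35.3, 15.5 and 31.5 FPKM in SCNT pools. IVF pools were lowest, SCNT pools highest, and no groups overlapped. The differences were -2.05 ± 0.42, adjusted p = 0.0038 for KDM4E-SCNT against SCNT, -4.31 ± 0.37, adjusted p = 2.54e-06 for IVF against SCNT and 2.25 ± 0.42, adjusted p = 0.00542 for KDM4E-SCNT against IVF. Its partner SLC30A5, named after its values were seen, was lower in IVF than in SCNT (-1.43 ± 0.33, adjusted p = 0.00267) and not called for KDM4E-SCNT against SCNT (-0.48 ± 0.37, adjusted p = 0.331).

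The importers SLC39A6 and SLC39A10 form a pair that takes up zinc in the mouse oocyte and egg. SLC39A6 was lower in KDM4E-SCNT (-1.29 ± 0.36, adjusted p = 0.0164) and IVF (-1.93 ± 0.32, adjusted p = 2.48e-04) than in SCNT. SLC39A10 had 60.8 and 40.7 FPKM in KDM4E-SCNT pools, 9.62, 52.5 and 23.5 FPKM in IVF pools, and 77.9, 57.4 and 78.6 FPKM in SCNT pools, was lower in IVF than in SCNT (-1.57 ± 0.47, adjusted p = 0.0118) and was not called for KDM4E-SCNT against SCNT (-0.50 ± 0.52, adjusted p = 0.483). SLC39A9 was lower in KDM4E-SCNT (-1.69 ± 0.38, adjusted p = 0.00639) and in IVF (-2.42 ± 0.34, adjusted p = 8.32e-05) than in SCNT.

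The copper importer SLC31A1 held the highest mean of the metal class and had 132 and 47.3 FPKM in KDM4E-SCNT pools, 52.0, 24.4 and 35.1 FPKM in IVF pools, and 139, 118 and 148 FPKM in SCNT pools. KDM4E-SCNT replicate 1 lay among the SCNT pools and replicate 2 among the IVF pools. It was lower in IVF than in SCNT (-1.90 ± 0.38, adjusted p = 0.00106), and KDM4E-SCNT against SCNT did not pass (-0.76 ± 0.43, adjusted p = 0.187). SLC11A2, the iron importer DMT1, was higher in KDM4E-SCNT (1.84 ± 0.37, adjusted p = 0.00352) and in IVF (2.16 ± 0.33, adjusted p = 1.36e-04) than in SCNT. SLC40A1, the iron exporter ferroportin, named after its values were seen, was higher in both as well (1.90 ± 0.43, adjusted p = 0.0062 and 2.39 ± 0.38, adjusted p = 2.00e-04). Without KDM4E-SCNT replicate 2, which left 1 pool in that group, the KDM4E-SCNT against SCNT calls of SLC39A6 and SLC39A9 were lost. Their differences were then -1.025 and -1.59. The SLC39A6 call for KDM4E-SCNT was lost also without SCNT replicate 1 (adjusted p = 0.0521).

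Carriers of nucleosides, nucleotide sugars and vitamins were higher in 8 and lower in 1 of 27 for KDM4E-SCNT against SCNT, and higher in 15 and lower in 4 for IVF against SCNT. The class shares were 29.6% higher and 3.7% lower for KDM4E-SCNT against SCNT and 55.6% and 14.8% for IVF against SCNT, beside 21.6% and 11.0%, and 34.9% and 23.6%, of all features. Under median-ratio scaling the split for KDM4E-SCNT against SCNT was 3 higher and 3 lower, where all features split 2099 and 2763. Without KDM4E-SCNT replicate 2, which left 1 pool in that group, the class median for KDM4E-SCNT against SCNT was 0.365, with 0.19 for all features. The KDM4E-SCNT against SCNT calls of the class were lost in that fit, where fewer of all features were called in that comparison too. The sodium-driven nucleoside carrier SLC28A3 had 3.49 and 10.1 FPKM in KDM4E-SCNT pools, 8.56, 13.6 and 9.51 FPKM in IVF pools, and 0.60, 0.74 and 0.39 FPKM in SCNT pools. All pools of KDM4E-SCNT and IVF exceeded all SCNT pools, with 2.17 ± 0.43, adjusted p = 0.00355 for KDM4E-SCNT against SCNT and 2.85 ± 0.39, adjusted p = 6.03e-05 for IVF against SCNT. The SLC28 family went both ways for IVF against SCNT, with 2 of 3 members called higher and 1, SLC28A2, called lower. For KDM4E-SCNT against SCNT 2 were higher and 0 lower. The equilibrative nucleoside carrier SLC29A1, named after its values were seen, had 1.05 and 7.97 FPKM in KDM4E-SCNT pools, 22.8, 3.31 and 16.9 FPKM in IVF pools, and 0.67, 0.63 and 0.18 FPKM in SCNT pools. Its 2 KDM4E-SCNT pools lay far apart, and it was called for IVF against SCNT (3.05 ± 0.63, adjusted p = 0.00126) and not for KDM4E-SCNT against SCNT (1.54 ± 0.71, adjusted p = 0.11).

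Carriers that bring nucleotide sugars into the Golgi and endoplasmic reticulum belong to the SLC35 family. Of its 17 members, 9 were higher and 2 lower for IVF against SCNT, which is 52.9% and 11.8% beside 34.9% and 23.6% of all features. SLC35A4 was among the lower calls, and it reached 1 FPKM in pools of 1 group only. For KDM4E-SCNT against SCNT 5 were higher and 0 lower, 29.4% and 0% beside 21.6% and 11.0% of all features. SLC35D1, a carrier of UDP-sugars, differed by 1.54 ± 0.39, adjusted p = 0.0109 for KDM4E-SCNT against SCNT and 1.60 ± 0.35, adjusted p = 0.00183 for IVF against SCNT. SLC35E3, which has no settled substrate, had 22.6 and 78.1 FPKM in KDM4E-SCNT pools, 66.2, 92.8 and 86.4 FPKM in IVF pools, and 16.0, 17.4 and 17.8 FPKM in SCNT pools. KDM4E-SCNT replicate 1 lay near the SCNT pools and replicate 2 among the IVF pools. It was higher in KDM4E-SCNT (1.26 ± 0.43, adjusted p = 0.0416) and in IVF (2.18 ± 0.39, adjusted p = 4.30e-04) than in SCNT, and the first of these calls was lost in 8 alternatives. SLC35A1, the CMP-sialic acid carrier, was among the higher calls for IVF against SCNT (1.22 ± 0.29, adjusted p = 0.0028) and not called for KDM4E-SCNT against SCNT (0.69 ± 0.32, adjusted p = 0.113).

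SLC5A6, which takes up biotin and pantothenate, was the 1 lower call of the class for KDM4E-SCNT against SCNT. It had 5.67 and 5.81 FPKM in KDM4E-SCNT pools, 5.68, 1.42 and 3.75 FPKM in IVF pools, and 20.4, 22.3 and 18.7 FPKM in SCNT pools. Both other groups lay below all SCNT pools, with -1.67 ± 0.42, adjusted p = 0.011 for KDM4E-SCNT against SCNT and -2.33 ± 0.38, adjusted p = 2.25e-04 for IVF against SCNT. Without KDM4E-SCNT replicate 2 the adjusted p for KDM4E-SCNT against SCNT was 0.0714 for SLC5A6, 0.0571 for SLC28A3, 0.0721 for SLC35D1 and 0.526 for SLC35E3. Under median-ratio scaling it was 0.0541 for SLC35D1.

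Carriers of other substrates were higher in 9 and lower in 1 of 30 for KDM4E-SCNT against SCNT and higher in 14 and lower in 2 for IVF against SCNT. This amounts to 30% higher and 3.3% lower for KDM4E-SCNT against SCNT and 46.7% and 6.7% for IVF against SCNT, beside 21.6% and 11.0%, and 34.9% and 23.6%, of all features. With median-ratio scaling the class had 7 higher and 3 lower for KDM4E-SCNT against SCNT, and 14 higher and 5 lower for IVF against SCNT. All features then split 2099 higher and 2763 lower, and 4142 and 4337. SLC16A1 (ENSBTAG00000015107.2, chromosome 3, 30533845 to 30563298), the monocarboxylate carrier MCT1 for lactate and pyruvate, had 22.3 and 18.5 FPKM in KDM4E-SCNT pools, 3.54, 15.4 and 9.13 FPKM in IVF pools, and 46.9, 49.0 and 37.4 FPKM in SCNT pools. Both other groups lay below all SCNT pools. It was lower in IVF than in SCNT (-2.31 ± 0.41, adjusted p = 4.32e-04), while KDM4E-SCNT against SCNT (-1.08 ± 0.46, adjusted p = 0.0866) and KDM4E-SCNT against IVF (1.23 ± 0.46, adjusted p = 0.154) did not pass. The lactate exporter SLC16A3 did not pass the limit on low values. SLC33A1, which moves acetyl-CoA into the endoplasmic reticulum, was lower in KDM4E-SCNT (-1.59 ± 0.42, adjusted p = 0.013) and in IVF (-2.65 ± 0.38, adjusted p = 8.23e-05) than in SCNT.

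SLC44A5, of the choline carrier-like family, had 16.6 and 15.6 FPKM in KDM4E-SCNT pools, 15.6, 29.0 and 23.2 FPKM in IVF pools, and 4.47, 2.06 and 1.48 FPKM in SCNT pools. No SCNT pool overlapped with another group, and the differences were 2.31 ± 0.42, adjusted p = 0.00214 for KDM4E-SCNT against SCNT and 2.73 ± 0.37, adjusted p = 6.15e-05 for IVF against SCNT. SLC17A5, the lysosomal exporter of sialic acid, differed by 1.98 ± 0.45, adjusted p = 0.00634 and 3.14 ± 0.40, adjusted p = 3.79e-05 in these comparisons. SLC51B, a subunit of a bile acid and steroid exporter, differed by 1.86 ± 0.42, adjusted p = 0.00618 and 2.60 ± 0.37, adjusted p = 9.15e-05. Without KDM4E-SCNT replicate 2, which left 1 pool in that group, the class median against SCNT was 0.61 in place of 0.82. The median of all features was then 0.19 in place of 0.33. The calls of SLC33A1, SLC17A5 and SLC51B were lost, with differences of -1.51, 1.445 and 1.29, and fewer of all features were called too.

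Of the 3 genes named after a carrier, SLC9A3R1, a scaffold protein that binds exchangers, was higher in KDM4E-SCNT (1.47 ± 0.41, adjusted p = 0.0176) and in IVF (1.71 ± 0.37, adjusted p = 0.00172) than in SCNT. SLC4A1AP was higher in both too (1.07 ± 0.34, adjusted p = 0.0285 and 1.14 ± 0.30, adjusted p = 0.00572), though neither call held under median-ratio scaling (adjusted p = 0.186 and 0.0633), nor the one for KDM4E-SCNT without any 1 pool of KDM4E-SCNT or SCNT. The SLC9A3R1 call for KDM4E-SCNT was lost without KDM4E-SCNT replicate 2 (adjusted p = 0.111). SLC7A6OS was lower in IVF than in SCNT (-1.27 ± 0.28, adjusted p = 0.00195).

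The 9 members called higher in KDM4E-SCNT than in IVF were SLC2A5, SLC38A1, SLC34A2, SLC26A4, SLC26A2, SLC30A6, SLC25A10, SLC25A3 and SLC25A25. SLC25A25, an ATP-magnesium and phosphate carrier, had 6.44 and 2.58 FPKM in KDM4E-SCNT pools, 0.98, 0.85 and 0.67 FPKM in IVF pools, and 3.22, 4.12 and 2.84 FPKM in SCNT pools. Its KDM4E-SCNT and SCNT pools overlapped, and it differed by 1.50 ± 0.41, adjusted p = 0.0471 between KDM4E-SCNT and IVF, a call lost in 13 of 15 alternatives. The comparison shares its IVF pools with IVF against SCNT, where each of the 9 was called lower. Without KDM4E-SCNT replicate 1, which left 1 pool in that group, the 9 differences ran from 0.97 (SLC25A25) to 2.69 (SLC34A2). Of the 9 calls only that of SLC2A5 was kept, and fewer of all features were called in that fit too. With only the 2 groups compared in the fit, 5 members were called higher, where all features had 505 higher in place of 875. The SLC26A4 call was lost in 10 alternatives and the SLC25A3 call in 3.

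The 2 KDM4E-SCNT pools differed from each other. On the log2 scale, replicate 1 lay closer to the SCNT mean for 81 members and closer to the IVF mean for 90, while replicate 2 lay closer to the SCNT mean for 28 and to the IVF mean for 143. The median member stood 0.37 above the SCNT mean in replicate 1 and 0.67 above it in replicate 2. Against the IVF mean it stood 0.28 below (-0.28) in replicate 1 and 0.04 below (-0.04) in replicate 2. All features shifted between the pools as well. Their medians in replicates 1 and 2 were 0.19 and 0.41 against the SCNT mean, and -0.12 and 0.08 against the IVF mean. Fibroblast markers summed to 85.3 FPKM in replicate 1 and 347 FPKM in replicate 2, and oocyte and early embryo markers to 5968 and 8923 FPKM. The part of this difference in the calls was not tested beyond leaving each pool out.

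Genes that work beside the carriers were taken from a list of pumps, channels, subunits and glucose enzymes, 25 of which were tested. For KDM4E-SCNT against SCNT 6 were higher and 5 lower, for IVF against SCNT 9 were higher and 9 lower, and for KDM4E-SCNT against IVF 3 were higher and 0 lower, with medians of 0.11, 0.33 and 0.07. The shares called were 24% higher and 20% lower for KDM4E-SCNT against SCNT and 36% and 36% for IVF against SCNT, beside 21.6% and 11.0%, and 34.9% and 23.6%, of all features. ATP1B3, a smaller subunit of the sodium pump, whose gradient drives SLC5, SLC6 and SLC38 carriers, had 128 and 69.8 FPKM in KDM4E-SCNT pools, 22.3, 17.2 and 16.1 FPKM in IVF pools, and 249, 145 and 192 FPKM in SCNT pools, and differed by -1.0 ± 0.35, adjusted p = 0.0452 for KDM4E-SCNT against SCNT and -3.31 ± 0.32, adjusted p = 5.09e-06 for IVF against SCNT. The IVF pools were lowest, and every KDM4E-SCNT pool lay below every SCNT pool.

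Hexokinases trap the glucose that SLC2 and SLC5 carriers bring in. HK1 was higher in KDM4E-SCNT (2.06 ± 0.42, adjusted p = 0.00404) and in IVF (2.75 ± 0.38, adjusted p = 6.73e-05) than in SCNT, and HK2 was lower in IVF (-3.79 ± 0.46, adjusted p = 2.77e-05) and not called in KDM4E-SCNT (-1.36 ± 0.52, adjusted p = 0.0589). Of the lactate dehydrogenases, whose product and substrate SLC16A1 carries, LDHA had 313 and 466 FPKM in KDM4E-SCNT pools, 1221, 537 and 543 FPKM in IVF pools, and 27.1, 80.9 and 44.6 FPKM in SCNT pools, with no overlap between SCNT and the other groups and a difference of 3.02 ± 0.46, adjusted p = 0.00117 for KDM4E-SCNT against SCNT. LDHB had 60.4 and 114 FPKM in KDM4E-SCNT pools, 52.9, 44.4 and 55.2 FPKM in IVF pools, and 235, 125 and 191 FPKM in SCNT pools, and was lower in KDM4E-SCNT (-1.09 ± 0.36, adjusted p = 0.0353) and in IVF (-1.79 ± 0.32, adjusted p = 4.65e-04) than in SCNT.

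At the mitochondrial membranes, the outer membrane channel VDAC1 had 86.8 and 203 FPKM in KDM4E-SCNT pools, 179, 209 and 233 FPKM in IVF pools, and 25.3, 23.7 and 18.7 FPKM in SCNT pools. All SCNT pools were lowest, and the difference was 2.52 ± 0.36, adjusted p = 9.17e-04 for KDM4E-SCNT against SCNT and 3.15 ± 0.33, adjusted p = 8.59e-06 for IVF against SCNT. The pyruvate carrier subunit MPC1 was higher in KDM4E-SCNT (1.03 ± 0.37, adjusted p = 0.0477) and in IVF (1.58 ± 0.33, adjusted p = 0.0013) than in SCNT, while its partner MPC2 was not called in KDM4E-SCNT (-0.72 ± 0.34, adjusted p = 0.114) and differed by -1.12 ± 0.30, adjusted p = 0.00669 in IVF. SMDT1, a subunit of the calcium uniporter, had 41.1 and 30.8 FPKM in KDM4E-SCNT pools, 3.05, 1.48 and 3.56 FPKM in IVF pools, and 114, 71.9 and 74.3 FPKM in SCNT pools. Its groups did not overlap, and it was lower in KDM4E-SCNT (-1.23 ± 0.37, adjusted p = 0.025) and in IVF (-4.58 ± 0.34, adjusted p = 8.93e-07) than in SCNT. MCU, the pore subunit of the same uniporter, had 12.4 and 14.7 FPKM in KDM4E-SCNT pools, 21.6, 7.59 and 18.1 FPKM in IVF pools, and 9.98, 3.94 and 3.70 FPKM in SCNT pools. It was called higher for IVF against SCNT (1.29 ± 0.44, adjusted p = 0.0225), and KDM4E-SCNT against SCNT did not pass (1.19 ± 0.49, adjusted p = 0.0759). Of the other outer membrane channels, VDAC2 was lower in IVF than in SCNT (-0.84 ± 0.28, adjusted p = 0.0218) and VDAC3 was higher (1.17 ± 0.32, adjusted p = 0.00729), and neither passed for KDM4E-SCNT against SCNT (-0.66 ± 0.31, adjusted p = 0.123 and 0.88 ± 0.36, adjusted p = 0.0762). These genes come from the list of 25 and were picked from it after their values were seen.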

How the data were processed

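RNA from 8 libraries of pooled eight-cell cattle embryos was analysed. Per the labels' protocols, poly(A)-tailed cDNA was amplified by PCR before sequencing. The submitters' processing notes name the UMD3.1 build and, among the tools, RSEM 1.2.12 and HISAT 0.1.6. The authors deposited 1 table of FPKM per library, so depth is unknown, and a listed 0 may be a failed estimate. Features with at least 1 FPKM in at least 2 libraries were fitted as log2(FPKM + 1) with limma 3.58.1 in R 4.3.3 (trend, robust), all 8 libraries in 1 fit with group means. This scale understates the change of low genes. P-values were two-sided, Benjamini-Hochberg adjusted over all 14839 features, and called under 0.05. The script was tested on simulated data.

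Members, substrate classes and lists were chosen with earlier results of these data known. Named are, per class, the 3 highest members, the 3 called members with the smallest p per comparison and direction, a fixed list of 21 carriers and the members at the limit (67 in all, some not reported here); others are said to be chosen after their values were seen. The 2 pseudocounts, filters, scalings, a replicate block, fits of 2 groups and leaving out each library were alternatives. Another 36 features, described as solute carriers but without an SLC symbol, were left out. The spans of 5 members overlap another feature (SLC1A4, SLC4A8, SLC25A35, SLC48A1 and SLC51A), and the descriptions of SLC4A7 and SLC27A1 also name transposon proteins. RefSeq gene neighbours came from ARS-UCD2.0, with no coordinates taken from it.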

Additional observations from a re-analysis of the deposited data

How the results depend on the processing

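Each count and each named member was recomputed under 15 alternatives. No call of a named member changed direction in any of them. Median-ratio scaling gave 31 members higher and 30 lower for KDM4E-SCNT against SCNT, in place of 51 and 18; the scaling moved all features as well. For KDM4E-SCNT against IVF, 5 members were higher with only these 2 groups in the fit, in place of 9. All features then had 505 higher in place of 875. The 0 lower members became 2 with a filter at 5 FPKM and 2 with every library rescaled to a total of 1000000. With the replicate block there was 1, and the cause was not tested. Leaving out each library in turn gave 12 to 57 higher and 5 to 22 lower for KDM4E-SCNT against SCNT, 69 to 79 higher and 29 to 32 lower for IVF against SCNT, and 1 to 11 higher and 0 to 4 lower for KDM4E-SCNT against IVF. A group left with 1 pool was assumed to vary like the others. The all-feature median for KDM4E-SCNT against SCNT moved too, to 0.19 without KDM4E-SCNT replicate 2 and 0.41 without KDM4E-SCNT replicate 1. The most calls of named members, 29, were lost without KDM4E-SCNT replicate 2, then 14 without SCNT replicate 1 and 11 without KDM4E-SCNT replicate 1. The labels do not say whether a replicate number marks a shared day. Deviations of same-numbered pools correlated by 0.00649 to 0.123 over 7 pairs, all positive and not all over 0.1, so the pools were not treated as paired. As a hint from the data, the best match in another group had the same number in 10 of 16 cases. With the replicate block the counts were 45 higher and 18 lower for KDM4E-SCNT against SCNT, 78 and 32 for IVF against SCNT, and 8 and 1 for KDM4E-SCNT against IVF. With the block the calls of SLC38A8 for KDM4E-SCNT against SCNT (adjusted p = 0.0553), and of SLC26A4 and SLC25A25 for KDM4E-SCNT against IVF (adjusted p = 0.0581 and 0.0967), were not made, and no other call of a named member was lost. Low values limit SLC members near 1 FPKM most, and with unknown depth no interval for counting error can be given.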
